A study of Mus musculus with 31 samples.

Results

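Mouse embryonic fibroblasts (MEFs) carrying 4 reprogramming factors were compared with MEFs carrying GFP on day 8 after infection, in 4 of the 31 arrays of the series and across 19938 genes. The arms were 4F, cells infected on day 0 with retroviruses encoding Oct4, Sox2, Klf4 and c-Myc, and GFP, the control, infected with retroviruses encoding GFP. Each arm had 2 arrays on day 8, given as biological replicates 1 and 2 in their titles, and the 2 arrays of uninfected day 0 MEFs supplied the starting level. All the cells were kept in DMEM with foetal bovine serum, and strain, embryonic age and the share of cells infected are not given in the sources used here. Replicate 1 was labelled from 120 ng of total RNA and the other arrays from 300 ng, so the replicate number also marks the labelling input.

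Oct4, Sox2, Klf4 and c-Myc are transcription factors that, delivered together, can turn fibroblasts into induced pluripotent stem cells over several weeks. Fibroblasts on that path are known to lose matrix and mesenchymal genes, to keep dividing and to gain epithelial and then pluripotency genes, in a minority of cells. Primary MEFs passed through culture without the factors slow their division and secrete matrix and inflammatory proteins.

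Values are the authors' log2 levels, and a difference of 1 is a doubling. A gene was called where limma's moderated test, fitted on 24 replicated arrays of the series with the replicate number as a block, gave an adjusted p under 0.05. Each called gene was then placed by 2 further tests, 4F day 8 against day 0 and GFP day 8 against day 0: 4F alone, GFP alone, both in opposite directions, both in the same direction, or neither. Since passing in one arm and not in the other does not show that the arms are unequally far from day 0, that was tested too, as the distance of the midpoint of the arms from day 0. The replicates of 4F on day 8 correlated at 0.9744 over all genes, the lowest of the 12 replicated groups, and those of GFP at 0.9783, against 0.9919 for day 0.

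On day 8, 6819 of 19938 genes differed between 4F and GFP, or 34.2%. Of these, 3585 were higher in 4F (18% of the genes tested) and 3234 lower (16.2%), and both replicate pairs had the same sign for 3578 of the former and 3231 of the latter. The pairs are the arrays that the calls compared, so this agreement is no separate evidence. The difference was at least 1 for 991 of the higher genes and 1075 of the lower ones, and at least 2 for 171 and 315. Over all genes the median difference was -0.03. In these bulk samples, fewer cells of a type and less RNA per cell cannot be told apart.

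Both arms had left the starting level. Against day 0, 4408 genes were called in 4F (22.1%; 10.5% higher and 11.7% lower) and 5308 in GFP (26.6%; 11.9% higher and 14.7% lower). Counts of list members above or below day 0 are to be read beside these shares. Among the 6819 genes that separated the arms, GFP alone had left day 0 for 2726, 4F alone for 1973, both in opposite directions for 633, both in the same direction for 432, and neither for 1055. Those classes were 13.7%, 9.9%, 3.17%, 2.17% and 5.29% of all genes tested. GFP was the arm farther from day 0 for 1594 genes and 4F for 1246 (7.99% and 6.25% of all genes tested), and for the others the test of distance was not passed. Of the genes higher in 4F, 1625 were GFP alone and 1030 4F alone, and by distance GFP was farther for 992 and 4F for 579. The test of distance was passed by 884 of those 1625 and 492 of those 1030. Of the genes lower in 4F, 1101 were GFP alone and 943 4F alone, but by distance 4F was farther for 667 and GFP for 602. Here 493 of the 1101 and 465 of the 943 passed. For the rest, alone means only that the other arm was not called against day 0. The order of the arms turned in some omissions: without 4F day 8 replicate 1, 4F was farther for 1269 genes and GFP for 1254, and without GFP day 8 replicate 1, 2009 genes were 4F alone and 1888 GFP alone. It also turned where a log2 difference of at least 1 was required (201 with 4F farther, 193 with GFP). These class counts rest on few arrays. Without day 0 replicate 1 or 2, neither rose to 2056 or 2015, both opposite fell to 305 or 322, 4F farther to 784 or 824 and GFP farther to 934 or 925. The class with both in the same direction held 254 without day 0 replicate 1, 240 without GFP day 8 replicate 1 and 268 without 4F day 8 replicate 2. Without the replicate block, 5495 genes were called, with 356 both opposite, 214 both the same and 806 with 4F farther.

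**Figure D1:**
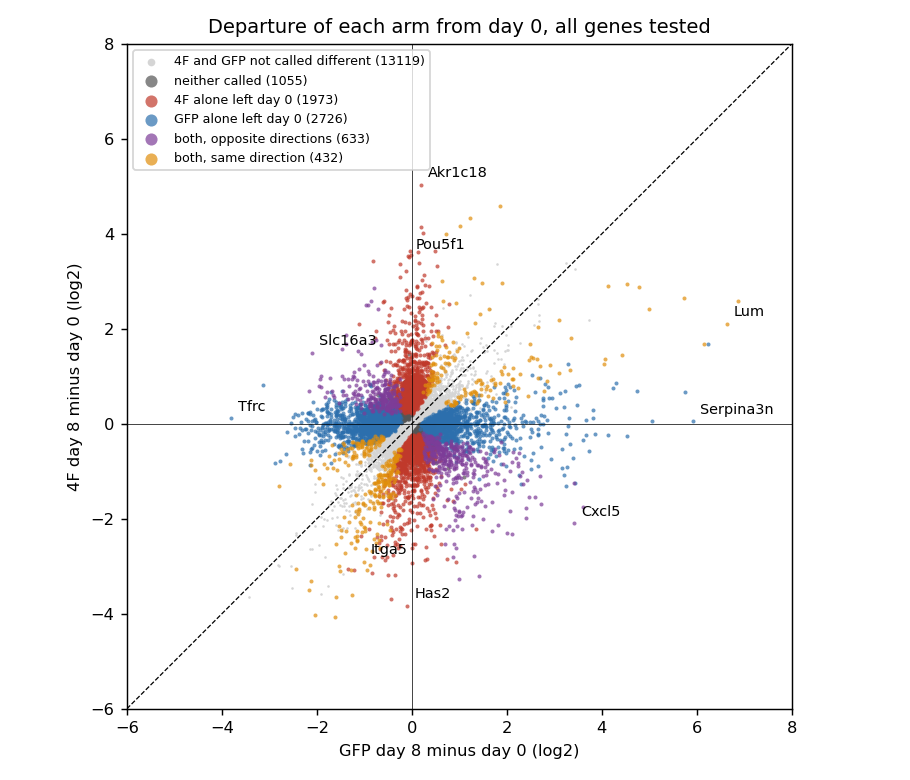
Each point is 1 of 19938 genes, placed by GFP day 8 minus day 0 (horizontal, log2) and 4F day 8 minus day 0 (vertical, log2), and coloured by class for the 6819 genes called between the arms; the dashed line marks equal departure. The blue band along the horizontal axis holds the 2726 genes called against day 0 in GFP alone, among them Serpina3n and Tfrc. The red band along the vertical axis holds the 1973 called against day 0 in 4F alone.

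Pou5f1, the gene of Oct4, read 5.66 and 5.23 in the day 0 arrays, 8.37 and 9.58 in the 4F arrays and 5.26 and 5.47 in the GFP arrays. Both 4F arrays were above all the others, and 4F minus GFP was 3.62 ± 0.38 (SE; adjusted p = 4.2e-06). Sox2 read 5.66 and 5.98 in the day 0 arrays, 6.79 and 8.21 in the 4F arrays and 5.45 and 5.40 in the GFP arrays, again with no overlap, and differed by 2.07 ± 0.26 (SE; adjusted p = 2.3e-05). Klf4 and c-Myc, also delivered, did not stand higher in 4F. Klf4 read 8.02 and 7.50 in the day 0 arrays, 6.71 and 7.55 in the 4F arrays and 8.15 and 7.96 in the GFP arrays, and 4F minus GFP was -0.92 ± 0.26 (SE; adjusted p = 0.012), a call lost without 4F day 8 replicate 1 (-0.49) or GFP day 8 replicate 1 (-0.80). Myc, the gene of c-Myc, read 9.70 and 9.58 in the day 0 arrays, 6.81 and 8.09 in the 4F arrays and 7.15 and 9.72 in the GFP arrays; its GFP arrays were far apart, the difference of -0.99 ± 0.48 (SE; adjusted p = 0.14) was not called, and without GFP day 8 replicate 1 it was -1.89 and called. Against day 0, Myc in 4F stood at -2.19 and was called. Whether these probes read the viral transcripts as well as the cells' own was not tested. The 3-factor array of day 8, from cells given Oct4, Sox2 and Klf4 without c-Myc, read 7.83 for Pou5f1 and 8.49 for Klf4.

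Genes of cell division were higher in 4F than in GFP, and it was the GFP arm that lay below day 0. All 56 measured DNA replication genes and all 68 genes of mitosis and the spindle were higher in 4F (against 18% of all genes). Median 4F minus GFP was 1.40 for the first and 1.79 for the second. In the GFP arm 55 of 56 and 68 of 68 were below day 0, against 14.7% of all genes, with medians of -1.41 and -1.78. In the 4F arm 7 and 2 were above day 0, 1 and 0 below it, and the medians were 0.12 and 0.02. Among all genes 10.5% were above and 11.7% below day 0 in 4F. GFP was the arm farther from day 0 for 39 and 54 of them. The 39 became 25 without day 0 replicate 2, and the 54 became 28 and 13 without day 0 replicate 1 and 2, while the counts below day 0 in GFP stayed within 1.5 times of 55 and 68. The 7 became 4, 3 and 2 without 4F day 8 replicate 1, 4F day 8 replicate 2 and day 0 replicate 1, and the 2 became 7 without either GFP array.

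Promoters are shown for 2 of the most changed called genes with a window in each of 5 lists, whether or not a motif was found. The lists are DNA replication, mitosis, ribosome assembly, complement and acute phase, and collagens, since members of these lists moved together. The 2 shown are not always the most changed of a list. Among the collagens, Col12a1, Lox and Loxl1 (4F minus GFP -4.11, -3.83 and -3.68) differed more and are not shown. The windows are the 250 bases before the start of each gene, 5′ to 3′ on the gene's strand, from RefSeq on GRCm38.p6 (the first window listed for a gene). Capitals mark CCAAT (the NF-Y box), TTTGAA or TTCGAA (the CHR element of mitotic genes), GCGGGAA (an E2F site) and CACGTG (the E-box bound by Myc and its partners), on either strand, of 7 motifs searched, and no marked motif overlaps another. Uhrf1, which recruits maintenance DNA methylation at replication, lies at chr17:56303087-56303336, plus strand. Mcm7, a subunit of the replicative helicase, lies at chr5:138171884-138172133, minus strand. Ect2, which drives cytokinesis, lies at chr3:27153879-27154128, minus strand, and Bub1, a spindle checkpoint kinase, at chr2:127831860-127832109, minus strand. Dkc1, the pseudouridine synthase of the nucleolus, lies at chrX:75095604-75095853, plus strand, and Utp18, of the small ribosomal subunit processome, at chr11:93885767-93886016, minus strand. The acute phase genes Serpina3n and Saa3 lie at chr12:104406458-104406707, plus strand and chr7:46715677-46715926, minus strand. Col8a1, a network-forming collagen, lies at chr16:57754738-57754987, minus strand, and P4ha3, a collagen prolyl hydroxylase, at chr7:100285270-100285519, plus strand.
Uhrf1: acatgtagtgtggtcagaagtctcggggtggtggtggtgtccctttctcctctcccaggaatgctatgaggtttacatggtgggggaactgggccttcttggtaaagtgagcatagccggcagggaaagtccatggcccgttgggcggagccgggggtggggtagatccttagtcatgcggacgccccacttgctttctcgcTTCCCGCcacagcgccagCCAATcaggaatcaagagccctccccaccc
Mcm7: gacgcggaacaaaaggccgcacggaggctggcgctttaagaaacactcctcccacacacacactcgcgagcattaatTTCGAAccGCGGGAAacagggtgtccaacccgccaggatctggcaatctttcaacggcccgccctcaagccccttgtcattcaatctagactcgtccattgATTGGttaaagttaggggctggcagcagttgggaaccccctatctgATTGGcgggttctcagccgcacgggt
Ect2: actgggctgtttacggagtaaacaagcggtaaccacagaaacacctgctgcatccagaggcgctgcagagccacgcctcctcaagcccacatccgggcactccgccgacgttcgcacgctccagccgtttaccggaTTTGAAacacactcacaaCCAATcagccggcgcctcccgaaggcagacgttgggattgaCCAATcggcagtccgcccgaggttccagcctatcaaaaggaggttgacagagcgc
Bub1: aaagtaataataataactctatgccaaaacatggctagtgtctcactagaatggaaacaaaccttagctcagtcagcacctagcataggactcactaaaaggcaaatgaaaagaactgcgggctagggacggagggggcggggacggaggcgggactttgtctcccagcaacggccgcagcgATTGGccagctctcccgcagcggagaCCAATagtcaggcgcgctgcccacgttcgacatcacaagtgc
Dkc1: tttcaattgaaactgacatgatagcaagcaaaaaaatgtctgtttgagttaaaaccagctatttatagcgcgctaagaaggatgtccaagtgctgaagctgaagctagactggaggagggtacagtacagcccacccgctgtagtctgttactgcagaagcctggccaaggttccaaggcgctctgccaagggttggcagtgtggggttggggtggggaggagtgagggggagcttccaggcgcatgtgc
Utp18: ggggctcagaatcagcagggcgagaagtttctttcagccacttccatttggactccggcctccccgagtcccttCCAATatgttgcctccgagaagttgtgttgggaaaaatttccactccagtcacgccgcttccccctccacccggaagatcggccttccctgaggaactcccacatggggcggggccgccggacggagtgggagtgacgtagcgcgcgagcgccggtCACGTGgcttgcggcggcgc
Serpina3n: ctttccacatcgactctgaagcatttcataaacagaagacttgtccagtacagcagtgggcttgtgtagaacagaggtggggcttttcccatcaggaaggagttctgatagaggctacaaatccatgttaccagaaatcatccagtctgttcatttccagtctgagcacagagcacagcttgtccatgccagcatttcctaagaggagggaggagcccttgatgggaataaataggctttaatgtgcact
Saa3: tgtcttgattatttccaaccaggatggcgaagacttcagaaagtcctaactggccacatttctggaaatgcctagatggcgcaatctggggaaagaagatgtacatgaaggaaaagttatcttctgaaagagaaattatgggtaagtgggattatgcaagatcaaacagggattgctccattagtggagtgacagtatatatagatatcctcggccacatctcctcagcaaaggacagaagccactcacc
Col8a1: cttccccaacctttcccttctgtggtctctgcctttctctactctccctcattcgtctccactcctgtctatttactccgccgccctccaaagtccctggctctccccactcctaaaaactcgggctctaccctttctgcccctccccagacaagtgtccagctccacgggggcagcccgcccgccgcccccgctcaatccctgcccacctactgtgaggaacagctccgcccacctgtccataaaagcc
P4ha3: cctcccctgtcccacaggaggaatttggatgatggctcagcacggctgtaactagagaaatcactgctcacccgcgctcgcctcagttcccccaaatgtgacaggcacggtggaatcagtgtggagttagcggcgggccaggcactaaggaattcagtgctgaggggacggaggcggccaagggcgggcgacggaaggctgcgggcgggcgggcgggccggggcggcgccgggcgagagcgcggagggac
The CCAAT of Uhrf1 begins at -30 and its E2F site at -48 from the start; Mcm7 holds CCAAT at -72 and -26, an E2F site at -165 and a CHR at -173. Ect2 holds CCAAT at -96 and -55 and a CHR at -114, Bub1 CCAAT at -68 and -42, and Utp18 an E-box at -20 and a CCAAT at -176. The windows of Dkc1, Serpina3n, Saa3, Col8a1 and P4ha3 held 0 of the 7 motifs, though Dkc1 was the most changed ribosome assembly gene. Among the 57 mitosis genes with a window, 66.7% held CCAAT, 40.4% a CHR and 3.51% an E2F site, against 35.5%, 15.1% and 5.33% of the 15614 tested genes with a window. Of the 46 DNA replication genes with one, 56.5% held CCAAT, 23.9% an E2F site, 15.2% a CHR and 13% an E-box, the last against 7.03% of tested genes. Of 55 ribosome assembly genes, 34.5% held CCAAT and 3.64% an E-box. The octamer ATGCAAAT, bound by Oct4, was in 1.61% of tested genes and in 0 of the DNA replication and mitosis windows. Over all 27025 windows of the table the shares were 34.5% for CCAAT, 17.4% for CHR, 3.84% for E2F, 6.05% for the E-box, 1.61% for the octamer, 4.43% for the AP-1 site TGACTCA and 0.914% for the STAT site TTCCNGGAA. Of the windows of 14 complement and acute phase genes, only 1 (7.14%) held CCAAT, 1 an AP-1 site and 1 a STAT site. Among tested genes the shares were 35.5%, 3.95% and 0.961%. Those of 31 collagen genes held CCAAT in 32.3% and an AP-1 site in 3.23%, the latter 1 window. A match describes letters in a window, and binding was not measured.

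Uhrf1 read 9.06 and 9.003 in the day 0 arrays, 9.26 and 9.23 in the 4F arrays and 6.27 and 6.89 in the GFP arrays. The 4F arrays lay just above the day 0 ones and both GFP arrays well below, and 4F minus GFP was 2.66 ± 0.21 (SE; adjusted p = 2.8e-07). Mcm7 read 9.60 and 9.51 in the day 0 arrays, 10.21 and 10.05 in the 4F arrays and 7.61 and 7.86 in the GFP arrays; here 4F had risen by 0.57 from day 0 and GFP stood at -1.82. Bub1 read 8.69 and 8.98 in the day 0 arrays, 8.73 and 8.98 in the 4F arrays and 5.49 and 7.08 in the GFP arrays, so the 4F arrays fell among those of day 0, and the GFP arrays, though apart from each other, were lower than every other array. Its difference was 2.57 ± 0.37 (SE; adjusted p = 6.1e-05). Ect2 followed, at 2.58, with Ncapg of condensin at 2.53, the spindle motor Kif11 at 2.54, the chromatin remodeller Hells, from the DNA methylation list, at 2.64 and the helicase subunit Mcm5 at 2.31. Neither arm was called against day 0 for the origin factor Orc3, which differed by 0.33 and whose call was lost without 4F day 8 replicate 2 or GFP day 8 replicate 2 (0.23 and 0.32).

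Genes that build ribosomes and feed growth moved in the same way. In ribosome assembly 65 of 66 genes were higher in 4F and 0 lower, against 18% and 16.2% of all genes. In GFP 64 were below day 0, against 14.7% of all genes. The medians against day 0 were -0.04 in 4F and -1.11 in GFP. GFP was farther from day 0 for 56 of them. Dkc1 read 9.21 and 9.38 in the day 0 arrays, 9.51 and 9.59 in the 4F arrays and 7.23 and 7.06 in the GFP arrays. Its GFP arrays were below all the others, and the difference was 2.40 ± 0.10 (SE; adjusted p = 6.7e-09). Utp18 differed by 1.88 and the methyltransferase Fbl by 1.86. Nop2, a ribosomal RNA methyltransferase, had fallen in both arms (-0.53 in 4F and -1.49 in GFP), and Polr1b, the second subunit of RNA polymerase I, rose by 0.50 in 4F and fell in GFP (-1.08).

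The counts of the other growth lists are to be read beside 18% higher and 16.2% lower among all genes, and 14.7% below day 0 in GFP. Of 36 aminoacyl-tRNA synthetases 29 were higher in 4F and 0 lower, with Iars at 1.18. In GFP 26 of the 36 were below day 0. In nucleotide and one-carbon synthesis 33 of 43 were higher and 4 lower, with Shmt1 at 2.27. Ppat, the first enzyme of purine synthesis, read 9.31 and 9.12 in the day 0 arrays, 9.99 and 10.04 in the 4F arrays and 7.36 and 7.14 in the GFP arrays, and rose by 0.80 in 4F while it fell in GFP (-1.96). Mitochondrial ribosomal proteins were higher for 56 of 75, with medians of 0.07 in 4F and -0.48 in GFP, and 51 below day 0 in GFP (32 without the replicate block). Mrps27 among them differed by 1.18. Respiratory chain genes were higher for 44 of 68 and lower for 1, and were smaller in size: the median difference was 0.47, Cyc1 the most changed at 1.21. Homologous recombination and Fanconi genes were higher for 31 of 39. Brca1 and Parp1, which act in DNA break repair, rose in 4F (0.70 and 1.24) and fell in GFP (-1.20 and -0.72). Tfrc, the transferrin receptor that takes up iron, went against its own list, iron uptake and storage, where 5 of 34 were higher in 4F and 15 lower. It read 9.79 and 9.93 in the day 0 arrays, 10.05 and 9.90 in the 4F arrays and 5.67 and 6.44 in the GFP arrays. The 4F arrays lay beside those of day 0 and the GFP arrays far below, with a difference of 3.92 ± 0.34 (SE; adjusted p = 6.7e-07).

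Cell-cycle regulators did not move as a block. Of 45 CDK inhibitor and p53 pathway genes, 12 were higher in 4F and 10 lower, against 18% and 16.2% of all genes. In either direction 48.9% of the list were called, against 34.2% of all genes. The median difference of 0.03 took the other sign with quantile normalization (-0.03). The 10 became 6 without GFP day 8 replicate 2 or without the replicate block. Rb1, the retinoblastoma protein that restrains E2F factors, was higher in 4F: it read 6.54 and 6.68 in the day 0 arrays, 8.64 and 9.29 in the 4F arrays and 6.57 and 6.97 in the GFP arrays, with GFP beside day 0 and a difference of 2.20 ± 0.12 (SE; adjusted p = 1.8e-08). Cdkn2b, an inhibitor of CDK4 and CDK6, read 8.20 and 8.71 in the day 0 arrays, 7.19 and 7.55 in the 4F arrays and 9.48 and 9.75 in the GFP arrays, falling in 4F (-1.08) and rising in GFP (1.16). Cdkn1c rose in GFP by 2.71 and stood at 0.97, not called, in 4F. Cyclin D1, Ccnd1, fell in GFP (-1.89). Among DNA methylation and polycomb genes 23 of 45 were higher in 4F and 5 lower; Ezh2 had fallen in GFP (-1.56), and Jarid2 had risen in 4F (2.46).

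**Figure D2:**
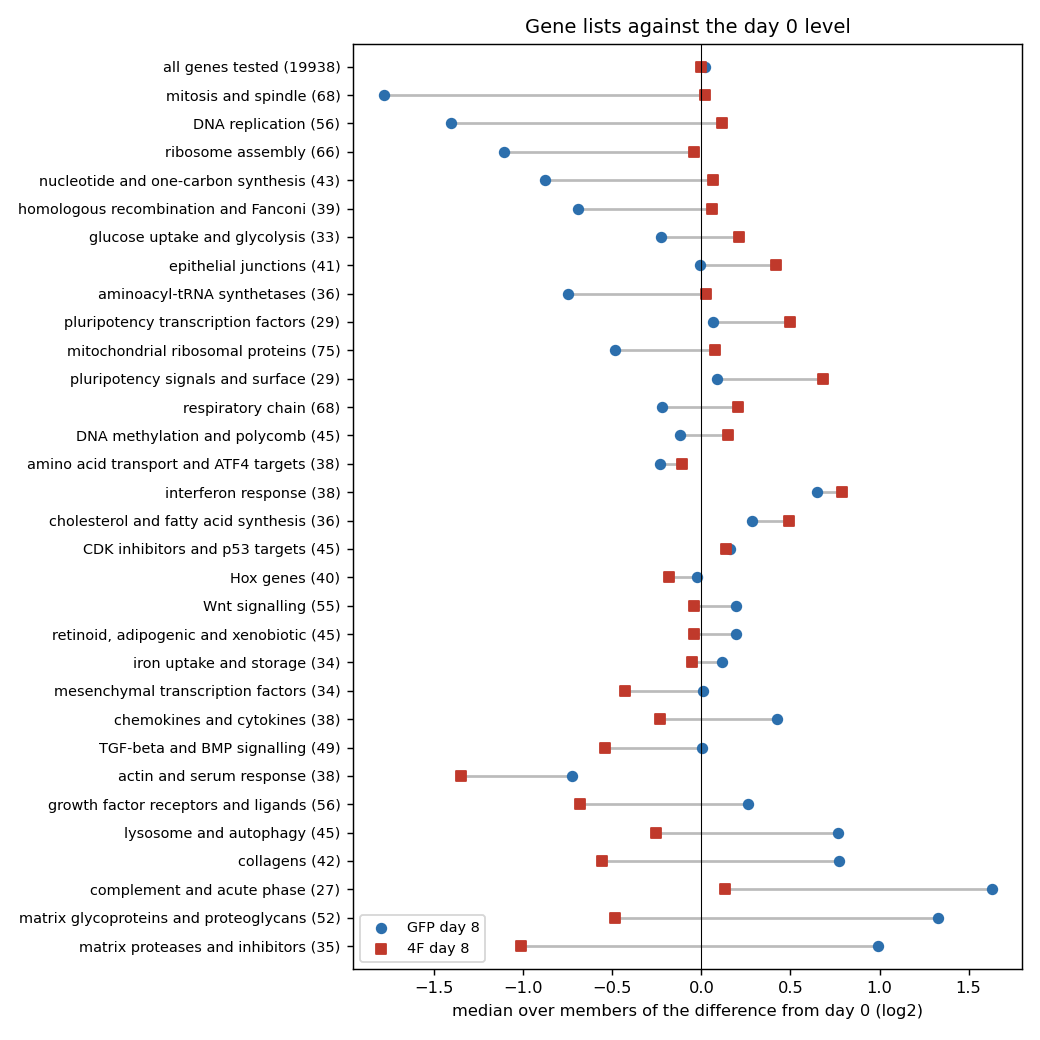
For each gene list, the number of measured members is in brackets, and the points give the median over members of 4F day 8 minus day 0 (red squares) and GFP day 8 minus day 0 (blue circles), in log2. Mitosis, DNA replication and ribosome lists have the red point near 0 and the blue one between -1.78 and -1.11, while matrix lists have the points on opposite sides of 0.

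Extracellular matrix genes separated the arms in the opposite direction, and here each arm had left day 0 for part of the genes. Of 42 collagen and collagen-processing genes 36 were lower in 4F and 1 higher, of 52 matrix glycoproteins and proteoglycans 41 were lower and 0 higher, and of 35 matrix proteases and inhibitors 29 were lower and 0 higher, against 16.2% lower among all genes. Among the lower genes, in that order, 4F alone had left day 0 for 9, 9 and 5, and GFP alone for 12, 16 and 10. Both arms had left it in opposite directions for 11, 11 and 13 and in the same direction for 0, 5 and 1, and neither for 4, 0 and 0. In 4F, 21, 23 and 19 of the members were below day 0, against 11.7% of all genes. In GFP 24, 33 and 24 were above it, against 11.9% of all genes. Against day 0 the list medians in 4F were -0.56, -0.49 and -1.01, and those in GFP 0.77, 1.33 and 0.99. In 4F, 5 of the 52 glycoprotein genes were above day 0, no larger a share than the 10.5% of all genes. That count fell to 1 without 4F day 8 replicate 1 or day 0 replicate 1.

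Col12a1, a fibril-associated collagen, read 10.39 and 10.77 in the day 0 arrays, 8.35 and 7.23 in the 4F arrays and 11.61 and 12.18 in the GFP arrays. All 3 groups stood apart, 4F lowest and GFP highest, and 4F minus GFP was -4.11 ± 0.30 (SE; adjusted p = 1.7e-07). Lox and Loxl1, which crosslink collagen, differed by -3.83 and -3.68. Postn, periostin, read 9.72 and 9.91 in the day 0 arrays, 8.04 and 8.21 in the 4F arrays and 12.56 and 12.51 in the GFP arrays, again with day 0 between the arms. Aspn, asporin, differed by -5.35, having fallen in 4F (-1.75) and risen in GFP (3.60). Col3a1, a fibrillar collagen, had risen in GFP by 2.95, while 4F stood at 0.55, not called. Col8a1 and P4ha3 differed by -2.95 and -2.91. Pcolce2 went against its list: it was higher in 4F by 1.58, and in GFP it had fallen from day 0 (-2.12).

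Dpt, dermatopontin, read 5.47 and 5.89 in the day 0 arrays, 6.35 and 6.34 in the 4F arrays and 11.64 and 11.24 in the GFP arrays. Only GFP had left day 0, and the difference was -5.10 ± 0.45 (SE; adjusted p = 7.5e-07). Lum, lumican, read 5.82 and 5.72 in the day 0 arrays, 7.65 and 8.11 in the 4F arrays and 12.57 and 12.23 in the GFP arrays; both arms rose, 4F by 2.11 and GFP by 6.63, and GFP was the farther. Has2, which makes hyaluronan, read 10.33 and 10.05 in the day 0 arrays, 6.06 and 6.66 in the 4F arrays and 9.36 and 10.83 in the GFP arrays: GFP straddled day 0 and both 4F arrays were far below, with a difference of -3.73 ± 0.38 (SE; adjusted p = 2.8e-06). Tnc, tenascin C, had the same form, -3.69 in 4F and -0.44 in GFP.

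Among the proteases, the collagenase Mmp13 read 7.64 and 6.71 in the day 0 arrays, 6.15 and 5.72 in the 4F arrays and 11.46 and 9.77 in the GFP arrays and stromelysin Mmp3 8.37 and 7.42 in the day 0 arrays, 6.66 and 6.53 in the 4F arrays and 12.47 and 9.82 in the GFP arrays. Both GFP arrays were above day 0 for each gene, replicate 1 more so, and the differences were -4.68 ± 0.52 (SE; adjusted p = 6.6e-06) and -4.55 ± 0.68 (SE; adjusted p = 9.2e-05). Plat, tissue plasminogen activator, fell in 4F (-1.77) and rose in GFP (2.40). Timp3, an inhibitor of metalloproteinases, was lower in 4F alone (-1.97 against day 0). Serping1, the C1 inhibitor, rose in both, by 2.89 in 4F and 4.79 in GFP; the call between the arms was lost without either replicate 1 array of day 8 (-1.51 without that of 4F, -1.12 without that of GFP).

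The 15 fibroblast markers checked the identity of the cells. All 15 were lower in 4F than in GFP, 11 were below day 0 in 4F, and 8 were above it in GFP. Their summed linear signal, in log2, was 15.17 and 15.26 on day 0, 14.33 and 14.09 in 4F and 16.26 and 16.23 in GFP. By this sum all 6 arrays carried signal of the labelled cell type. The sum follows the strongest members, and Lum, given above, lay below the day 0 array medians of 6.31 and 6.27. Pdgfra, the PDGF receptor alpha, read 9.04 and 9.32 in the day 0 arrays, 8.40 and 8.05 in the 4F arrays and 12.15 and 11.24 in the GFP arrays, and Dcn, decorin, 8.89 and 9.01 in the day 0 arrays, 9.66 and 9.97 in the 4F arrays and 13.38 and 13.11 in the GFP arrays; the arms did not overlap in either, and GFP had risen in both, by 2.51 and 4.30. Among 34 mesenchymal transcription factors 19 were lower in 4F and 1 higher, against 16.2% and 18% of all genes. Prrx2 fell in 4F alone (-2.61), Runx1 fell in 4F (-1.13) and rose in GFP (0.99), and Meox2 was the one that was higher, by 2.000.

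Secreted defence proteins stood higher in the control arm. Of 27 complement and acute phase genes 17 were lower in 4F and 1 higher, against 16.2% and 18% of all genes. In GFP, 17 were above day 0 and 0 below, with a median of 1.63; in 4F, 10 were above it (6 without 4F day 8 replicate 2) and 1 below, with a median of 0.13. GFP was the farther arm for 13 of the 17, or 8 without GFP day 8 replicate 1. Serpina3n, an acute phase protease inhibitor, read 5.75 and 5.97 in the day 0 arrays, 5.81 and 6.04 in the 4F arrays and 12.34 and 11.21 in the GFP arrays. The 4F arrays were at the day 0 level and the GFP arrays far above, and the difference of -5.85 ± 0.45 (SE; adjusted p = 2.8e-07) was the largest among all genes tested. Saa3, serum amyloid A3, read 6.11 and 6.003 in the day 0 arrays, 8.04 and 9.23 in the 4F arrays and 13.29 and 12.56 in the GFP arrays; both arms rose and GFP was the farther, with -4.29 ± 0.52 (SE; adjusted p = 1.4e-05) between them. Lcn2, the iron-scavenging lipocalin, rose in GFP alone (3.31). Cd59a, which blocks the membrane attack complex, was the one that was higher in 4F (0.99).

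Of 38 chemokines and cytokines 19 were lower in 4F and 1 higher, against 16.2% and 18% of all genes. Cxcl5, a neutrophil chemokine, read 9.23 and 9.03 in the day 0 arrays, 6.90 and 7.17 in the 4F arrays and 12.50 and 12.60 in the GFP arrays. The groups did not overlap, with day 0 between the arms, and the difference was -5.52 ± 0.41 (SE; adjusted p = 2.1e-07). Cxcl12 moved likewise, -1.99 in 4F and 2.41 in GFP, while its receptor Cxcr4 was the one that was higher in 4F (2.02). Ccl11, eotaxin, and Il33, an alarmin, rose in GFP alone, by 4.75 and 3.67. Csf1, the macrophage growth factor, fell in both arms, more in 4F (-2.62 against -0.66). In 4F, 14 of the list were below day 0, which became 9 without 4F day 8 replicate 1, 8 without day 0 replicate 1 and 7 without the replicate block.

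Growth factors and their receptors were lower in 4F for 29 of 56 genes and higher for 5, against 16.2% and 18% of all genes. Gas6, the ligand of the Axl receptor, read 8.10 and 8.94 in the day 0 arrays, 7.49 and 7.07 in the 4F arrays and 12.45 and 11.43 in the GFP arrays, falling in 4F and rising in GFP, with a difference of -4.66 ± 0.31 (SE; adjusted p = 9.5e-08). Fgf7, a fibroblast product that acts on epithelium, read 10.24 and 10.11 in the day 0 arrays, 6.52 and 7.32 in the 4F arrays and 10.98 and 11.37 in the GFP arrays, and there 4F was the farther. Igf1 rose in GFP alone (3.87), and Igfbp3, which binds it, rose in both arms, by 1.25 in 4F and 4.05 in GFP. The 5 that were higher became 2 with 4F day 8 replicate 2 left out, and 3 with GFP day 8 replicate 2 or the replicate block left out.

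Of 49 TGF-beta and BMP pathway genes 30 were lower in 4F and 1 higher, against 16.2% and 18% of all genes. In 4F, 26 were below day 0, against 11.7% of all genes. In GFP 12 were above and 10 below (6 below without day 0 replicate 1 or the replicate block), against 11.9% and 14.7% of all genes. The receptors Tgfbr3 and Tgfbr2 had risen in GFP, by 2.34 and 2.40, with 4F at -1.27 for the first (called) and 0.04 for the second (not called). The ligand Tgfb3 read 9.08 and 10.13 in the day 0 arrays, 7.27 and 6.71 in the 4F arrays and 9.07 and 10.15 in the GFP arrays, with 4F below all the others and GFP beside day 0. Inhba, the activin A subunit, fell in both arms (-4.07 in 4F and -1.62 in GFP), and its GFP arrays were far apart, at 7.90 and 10.66. Its call between the arms (-2.45) was lost in a fit on only the 6 arrays of day 0 and day 8.

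In the Wnt pathway 25 of 55 genes were lower in 4F and 7 higher (4 without GFP day 8 replicate 2 or without the replicate block). Among all genes 16.2% were lower and 18% higher. Of the secreted antagonists, 3 had risen in GFP: Sfrp2 by 3.17, Sfrp1 by 4.44 and Dkk3 by 2.24. Lgr5, an R-spondin receptor, read 5.85 and 6.16 in the day 0 arrays, 5.92 and 5.62 in the 4F arrays and 9.24 and 10.11 in the GFP arrays, with 4F around the day 0 values and GFP far above, and the difference was -3.91 ± 0.27 (SE; adjusted p = 1.1e-07). The ligand Wnt5a fell in 4F alone (-2.75). Lef1, a nuclear partner of beta-catenin, was the most changed of the higher genes, at 0.94 ± 0.06 (SE; adjusted p = 1e-07).

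Lysosomal and autophagy genes were lower in 4F for 31 of 45 and higher for 1, against 16.2% and 18% of all genes. In GFP 33 were above day 0 and 0 below, and in 4F 14 were below (9 without day 0 replicate 2, 8 without the replicate block). Ctsk, cathepsin K, read 7.64 and 7.53 in the day 0 arrays, 6.57 and 6.41 in the 4F arrays and 9.85 and 9.89 in the GFP arrays, with every 4F array below and every GFP array above day 0, and differed by -3.38 ± 0.23 (SE; adjusted p = 1e-07). Ctsh and the acid lipase Lipa took the same form, with -2.58 and -2.35. The 1 that was higher was Bnip3, a mitophagy receptor, described with the changes since day 5.

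Actin and serum response genes were below day 0 in both arms for 11 of the 19 members called between them. Of 38, 19 were lower in 4F and 0 higher, against 16.2% and 18% of all genes. In 4F 26 were below day 0, with a list median of -1.35; in GFP 16 were, with -0.72. The GFP arrays disagreed: the list median of level minus day 0 was -1.13 in replicate 1 and -0.08 in replicate 2. Without GFP day 8 replicate 1 the 16 became 5, and without GFP day 8 replicate 2 the 19 became 11. Without either day 0 array or the replicate block the 16 became 9. Itga5, the fibronectin receptor subunit, read 9.92 and 10.19 in the day 0 arrays, 7.13 and 7.18 in the 4F arrays and 8.57 and 9.52 in the GFP arrays; no group overlapped, and the difference was -1.89 ± 0.20 (SE; adjusted p = 3.4e-06). Cald1, caldesmon, fell in both arms (-2.51 in 4F and -0.75 in GFP). Ankrd1, a target of the YAP coactivator, shows the disagreement: it read 9.82 and 9.82 in the day 0 arrays, 5.33 and 6.27 in the 4F arrays and 6.06 and 9.52 in the GFP arrays, its call was lost without GFP day 8 replicate 2 (-0.58) and without either 4F array, and GFP replicate 2 lay beside day 0. Itga11, a collagen receptor subunit, was apart from the rest of the list, rising in GFP (2.07) and falling in 4F (-1.002). Thy1, a fibroblast surface glycoprotein, fell in both (-2.44 in 4F and -0.69 in GFP), as did Foxc2, a mesenchymal transcription factor (-2.54 and -1.59). The Foxc2 call between the arms was lost without 4F day 8 replicate 2 (-0.54) or GFP day 8 replicate 1 (-0.95).

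**Figure D3:**
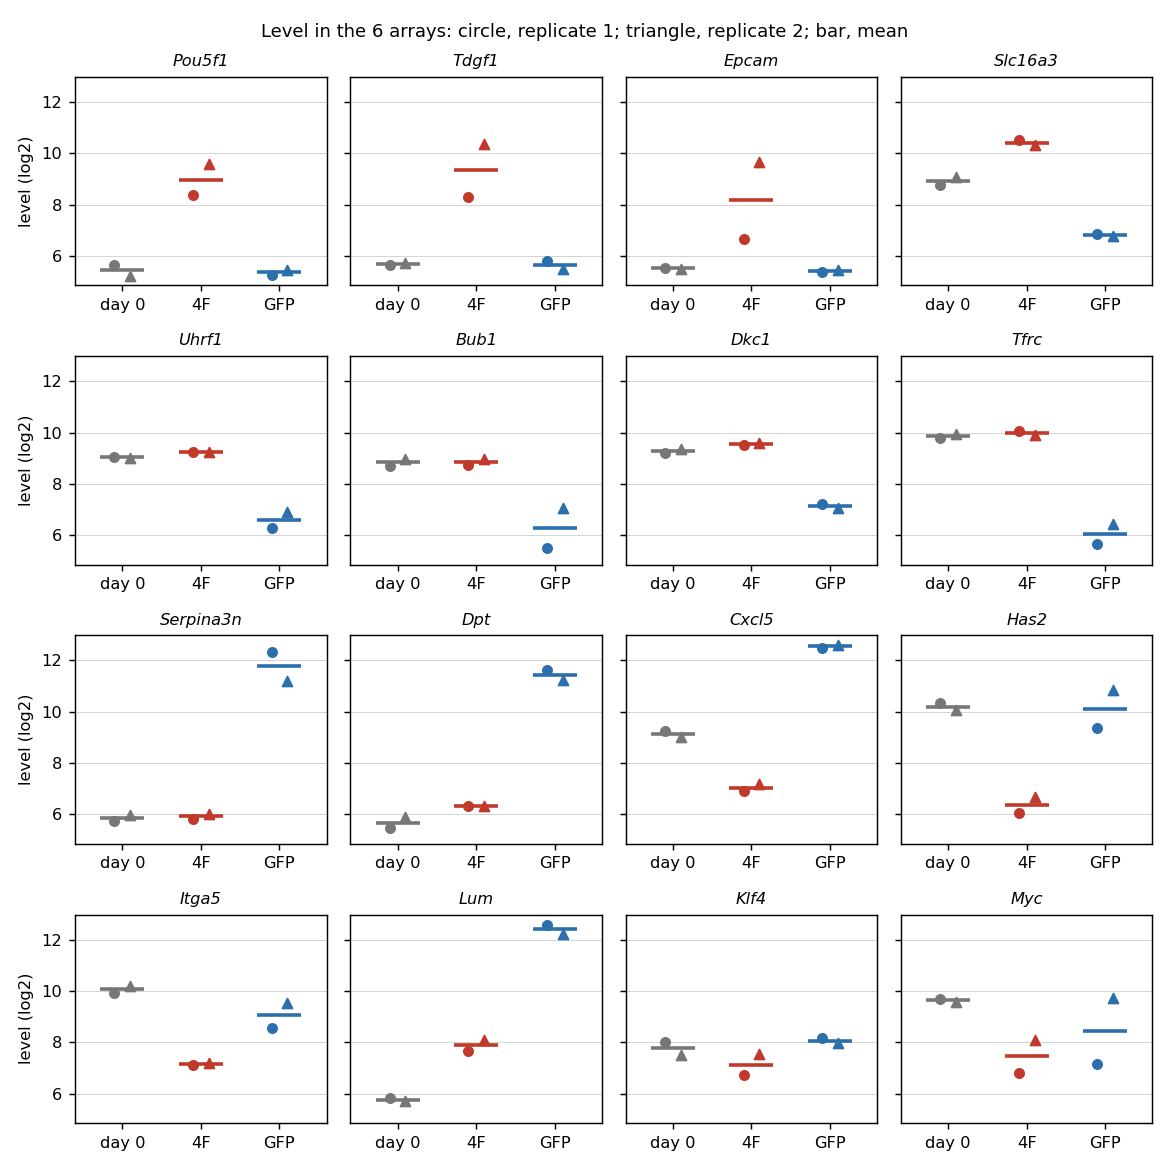
Level in log2 of 16 genes in the 2 day 0 arrays (grey), 2 4F arrays (red) and 2 GFP arrays (blue) of day 8; circles are replicate 1, triangles replicate 2 and bars the mean of each pair. Levels are to be read within a gene: Uhrf1, Bub1, Dkc1 and Tfrc have only GFP low, Serpina3n and Dpt only GFP high, Pou5f1 and Tdgf1 only 4F high, and the 4F pairs of Pou5f1, Tdgf1, Epcam and Myc and the GFP pairs of Bub1, Serpina3n, Has2 and Myc lie more than 1 apart.

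Pluripotency and epithelial genes were higher in 4F. Of 29 pluripotency transcription factors 14 were higher in 4F and 2 lower, of 29 pluripotency signalling and surface genes 16 were higher and 4 lower, and of 41 epithelial junction genes 23 were higher and 1 lower. Among all genes 18% were higher and 16.2% lower. In GFP the number above day 0 was 1, 3 and 0, against 11.9% of all genes. The 4F arrays differed in size here: in the replicate 1 pair the list medians of 4F minus GFP were 0.16, 0.14 and 0.15, and in the replicate 2 pair 1.05, 0.94 and 0.82. Without 4F day 8 replicate 2 the 16 became 9 and the 23 became 9, and without GFP day 8 replicate 2 the 16 became 9. The 14 kept within 1.5 times of itself in each omission.

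Nr0b1, an orphan receptor of embryonic stem cells, read 4.88 and 5.18 in the day 0 arrays, 6.81 and 8.69 in the 4F arrays and 5.17 and 4.80 in the GFP arrays. Both 4F arrays were above the rest, replicate 2 more so, and the difference was 2.77 ± 0.46 (SE; adjusted p = 0.00023). Fbxo15, an Oct4 and Sox2 target, read 4.79 and 4.71 in the day 0 arrays, 6.73 and 7.43 in the 4F arrays and 4.78 and 4.71 in the GFP arrays, with closer 4F arrays and a difference of 2.34 ± 0.17 (SE; adjusted p = 2e-07). Dppa5a, a stem cell RNA-binding protein, differed by 2.51, and Rif1, which also acts in replication timing, by 2.30, with GFP below day 0 at -1.21.

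Tdgf1, the Nodal co-receptor Cripto, read 5.67 and 5.72 in the day 0 arrays, 8.32 and 10.36 in the 4F arrays and 5.82 and 5.50 in the GFP arrays, and differed by 3.68 ± 0.51 (SE; adjusted p = 4.4e-05). L1td1, an RNA-binding protein of stem cells, read 5.63 and 5.58 in the day 0 arrays, 8.09 and 9.38 in the 4F arrays and 5.76 and 5.96 in the GFP arrays. Both genes were above the other arrays in both 4F arrays, and higher in replicate 2. Il6st, the gp130 receptor of LIF, was the most changed of the 4 lower genes (-2.40), and had risen in GFP (2.34).

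Epcam, an epithelial adhesion molecule, read 5.55 and 5.50 in the day 0 arrays, 6.67 and 9.68 in the 4F arrays and 5.37 and 5.45 in the GFP arrays. The 4F arrays were both above the others but far apart, and the difference of 2.76 ± 0.64 (SE; adjusted p = 0.0032) lost its call without 4F day 8 replicate 2 (1.42). Dsp, desmoplakin, read 6.21 and 6.15 in the day 0 arrays, 8.27 and 7.48 in the 4F arrays and 5.87 and 5.80 in the GFP arrays, and was higher in replicate 1 instead, with 2.04 ± 0.20 (SE; adjusted p = 1.7e-06). Spint2, a protease inhibitor of epithelia, differed by 2.10. Krt19, a keratin, had fallen in both arms, to 6.34 and 8.51 in 4F and 6.16 and 5.74 in GFP from 8.60 and 8.89, and its call between them was lost without 4F day 8 replicate 2 (0.55) or GFP day 8 replicate 2 (0.99). Cdh3, P-cadherin, was the 1 lower gene, at -1.998.

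Among all genes tested the largest difference upward was that of Akr1c18, a progesterone-metabolising reductase: it read 5.42 and 5.42 in the day 0 arrays, 10.15 and 10.76 in the 4F arrays and 5.83 and 5.39 in the GFP arrays, a difference of 4.84 ± 0.31 (SE; adjusted p = 6.8e-08). Bex1 followed at 4.25. Dpp4, a surface peptidase, rose in both arms, by 4.01 in 4F and 0.73 in GFP. Foxd1, a stromal transcription factor, rose in 4F (2.86) and fell in GFP (-0.80). Stmn2, a microtubule regulator better known from neurons, fell in GFP: it read 9.06 and 9.13 in the day 0 arrays, 10.05 and 9.79 in the 4F arrays and 5.54 and 6.38 in the GFP arrays.

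**Figure D4:**
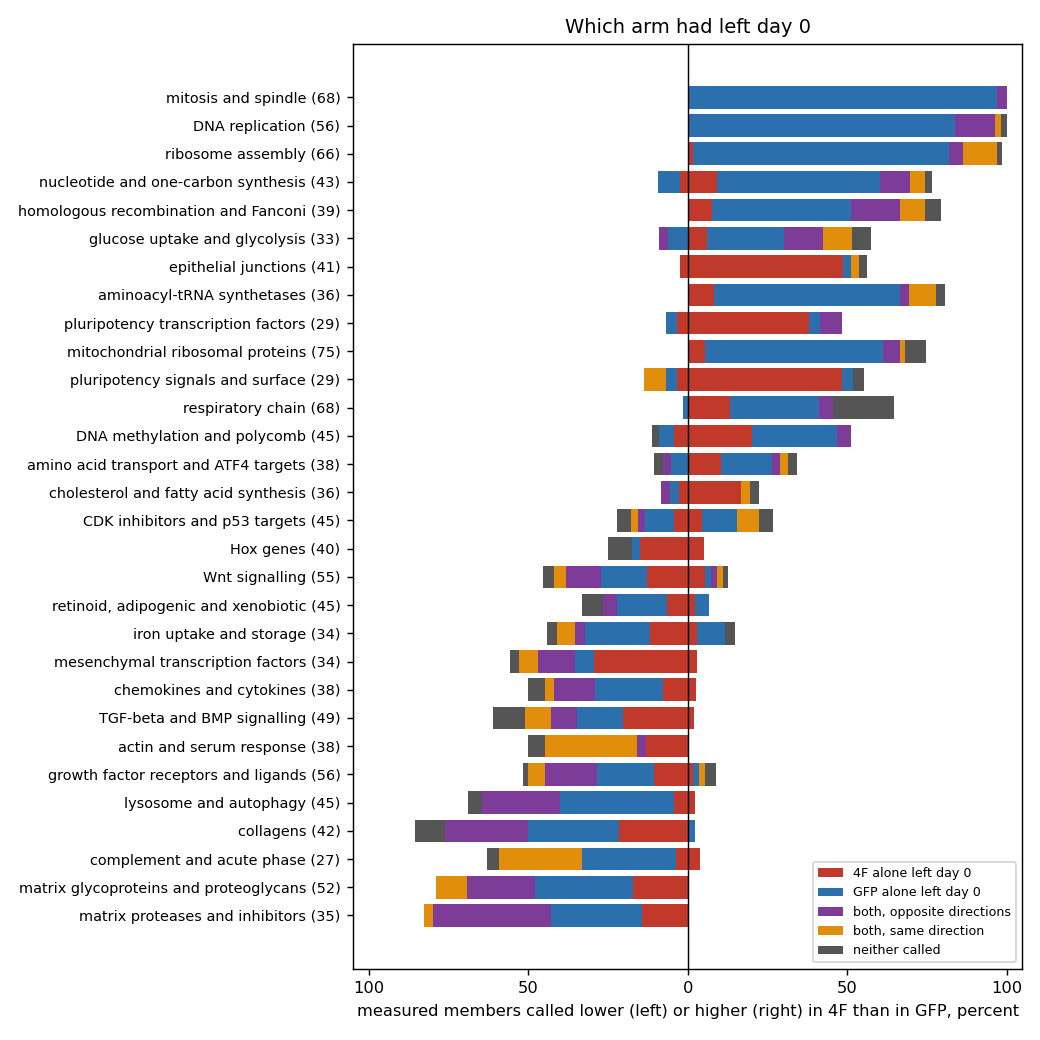
Percent of the measured members of each list (number in brackets) called lower in 4F than in GFP (bars to the left) or higher (to the right), split by which arm had left day 0. Mitosis and DNA replication reach 100 on the right and are mostly blue (GFP alone), epithelial and pluripotency lists are mostly red (4F alone), matrix lists mix red, blue and purple on the left, and actin genes are mostly orange (both the same).

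Sugar metabolism genes were mostly higher in 4F. Of 33 glucose uptake and glycolysis genes 19 were higher in 4F and 3 lower, against 18% and 16.2% of all genes. Slc16a3, the lactate exporter, read 8.76 and 9.09 in the day 0 arrays, 10.53 and 10.31 in the 4F arrays and 6.87 and 6.77 in the GFP arrays. It had risen in 4F and fallen in GFP with no overlap, and the difference was 3.60 ± 0.22 (SE; adjusted p = 4.2e-08). Aldoc, an aldolase, rose in 4F alone by 4.02. Slc2a3, a glucose transporter, read 7.04 and 7.47 in the day 0 arrays, 9.04 and 10.47 in the 4F arrays and 6.34 and 6.25 in the GFP arrays, with 3.46 ± 0.31 (SE; adjusted p = 1.1e-06). Pfkp, a phosphofructokinase, fell in GFP (-1.78). Slc2a1, the general glucose transporter, was higher by 1.11 with neither arm called against day 0, a call lost without 4F day 8 replicate 2 (0.81) or GFP day 8 replicate 1 (0.53). Pdk4, a kinase that inhibits pyruvate dehydrogenase, was the most changed of the lower genes (-2.88), and Slc16a1, another lactate carrier, rose in GFP (2.19).

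Whether the difference on day 8 exceeded that on day 5 was tested gene by gene, and 97 of 19938 genes were called (0.487%), 80 with a larger and 17 with a smaller absolute difference on day 8 (0.281% of genes moved upward and 0.206% downward). This count was unstable: it was 34 without the replicate block, 308 without 4F day 8 replicate 1, 418 without GFP day 8 replicate 2, 42 and 19 without 4F day 5 replicate 1 and 2, and 64 without GFP day 5 replicate 1. Bnip3 read 7.17 and 7.79 in the day 0 arrays, 9.84 and 10.09 in the 4F arrays and 7.41 and 7.35 in the GFP arrays on day 0 and day 8, and 4F minus GFP went from -0.35 on day 5 to 2.58 on day 8, a change of 2.93 ± 0.22 (SE; adjusted p = 4.2e-05). Slc16a3 went from 0.33 to 3.60, a change of 3.27 ± 0.30 (SE; adjusted p = 0.00017). Ndufa4l2, a mitochondrial protein induced in low oxygen, went from -0.01 to 2.65, and Egln3, an oxygen-sensing hydroxylase, from 1.56 to 3.44. Slc2a3 and Pfkp were called too, from 1.16 and 0.30 on day 5.

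Trh, a precursor of thyrotropin-releasing hormone, grew from 1.02 to 3.56. In the other direction Serpina3n went from -2.56 to -5.85, Il33 from -0.78 to -3.58 and Lgr5 from -1.81 to -3.91. Mcm7 was called as well, from 1.41 to 2.39. Among genes whose difference shrank, Unc5b, a netrin receptor, went from -2.09 to -0.63, Ggh, which trims folates, from 2.03 to 0.83, and P4ha1, which hydroxylates collagen, from -1.74 to -0.60. Unc5b had fallen in both arms by day 8 (-3.07 in 4F and -2.44 in GFP), and its call on day 8 was lost without 4F day 8 replicate 2 or GFP day 8 replicate 2 (-0.49 and -0.51).

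The day 12 arrays, 1 per arm and so without a test, were not part of the day 8 comparison. The sign on day 12 was that of day 8 for 3237 of the 3585 genes higher in 4F (90.3%) and for 2970 of the 3234 lower ones (91.8%), against 57.6% of the 13119 genes not called. All the called DNA replication and mitosis genes kept the sign, and so did 59 of 65 ribosome assembly genes and 41 of 41 matrix glycoprotein genes. The list medians of 4F minus GFP on day 12 were 1.06 for DNA replication, 0.58 for ribosome assembly and -2.41 for matrix glycoproteins. Epithelial junction genes stood at 1.80, beside 0.61 on day 8. Epcam differed by 4.43 on day 12, Krt19 by 4.39 and Pou5f1 by 4.28. Ribosome assembly in the 4F array of day 12 lay -0.70 from day 0 by list median, where the 4F arrays of day 8 lay at -0.02 and -0.01.

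**Figure D5:**
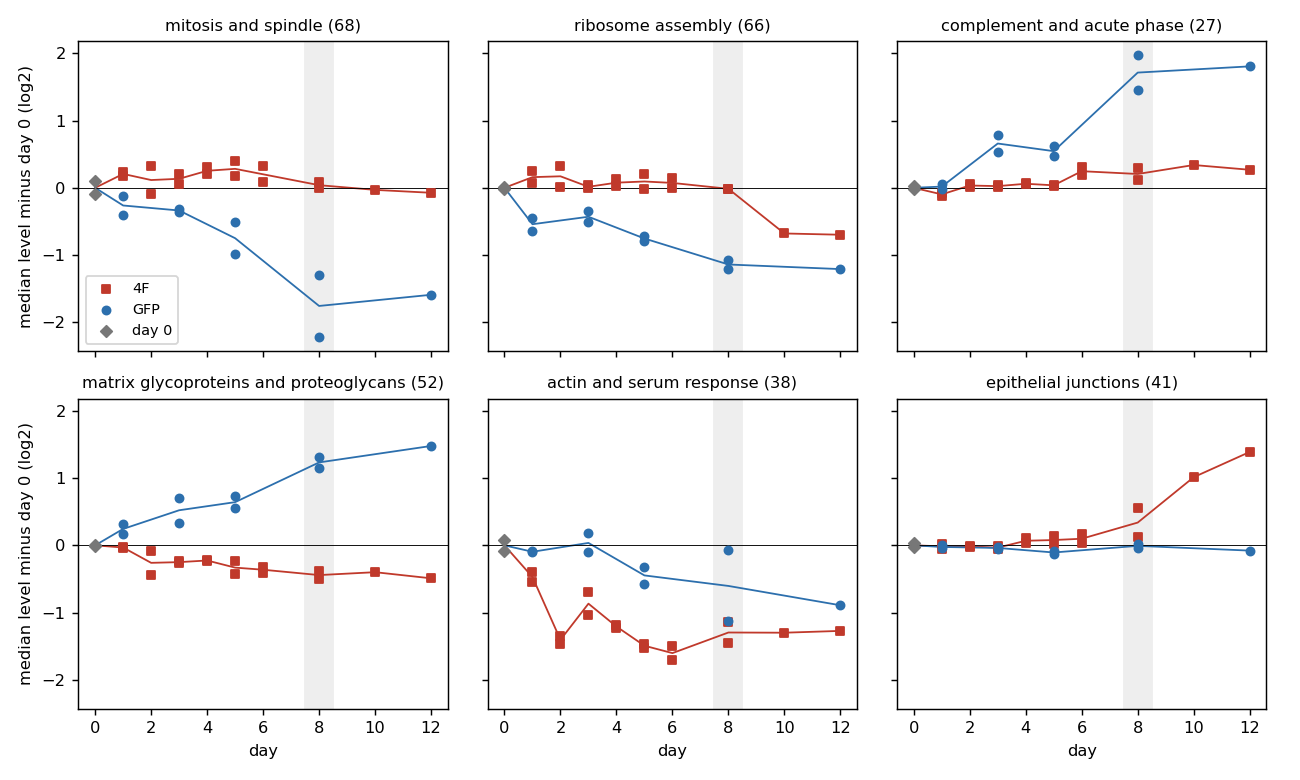
Median over the members of 6 lists of the level minus the day 0 mean (log2) by day after infection, with 1 point per array, red squares for 4F, blue circles for GFP, grey diamonds for day 0, lines through the means and day 8 shaded. GFP falls away from 0 in the mitosis and ribosome panels and rises in the acute phase and matrix panels, both arms lie below 0 on day 8 in the actin panel, and the 4F point of the epithelial panel stands at 1.39 on day 12 against -0.08 for GFP.

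The 3-factor array of day 8, the only one of its kind and so without a test, gives values without c-Myc at the same time. Its list medians against day 0 were -0.47 for mitosis, -0.55 for DNA replication, -1.10 for ribosome assembly, 1.22 for complement and acute phase genes and 0.14 for matrix glycoproteins. In the same order the 4F arrays read -0.003 and 0.08, 0.23 and 0.08, -0.02 and -0.01, 0.11 and 0.30, and -0.38 and -0.50. The GFP arrays read -2.22 and -1.29, -1.50 and -1.26, -1.08 and -1.20, 1.97 and 1.46, and 1.32 and 1.15.

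Markers of cell types other than fibroblasts were called for 44% of the neural, 37.5% of the macrophage, 26.9% of the keratinocyte, 15.8% of the endothelial, 12.5% of the skeletal muscle, 9.09% of the erythroid and 5% of the germ cell list, against 34.2% of all genes. Among 24 macrophage markers 3 were higher in 4F and 6 lower. Of the defining markers, Ptprc, Adgre1, Itgam, C1qb and Csf1r lay between 4.83 and 5.74 in all 6 arrays, where the 25th percentile of all genes was 5.25 to 5.35. Lyz2, another defining marker, stood higher and is given below. The summed signal of the list was 10.15 to 10.43 on day 0, 10.12 and 10.73 in 4F and 10.25 and 10.43 in GFP. Laptm5, a lysosomal protein of blood cells, was higher in both 4F arrays, at 7.55 and 9.16 against 5.82 and 5.73. Lyz2, lysozyme, was lower in 4F, at 5.22 and 5.41 against 7.18 and 7.20 in GFP. Its GFP level lay 0.01 from day 0 and its 4F level -1.87, so this marker was not near the low end on day 0 or in GFP. Neural markers were higher for 10 of 25 (6 without 4F day 8 replicate 1) and lower for 1, with a summed signal of 12.03 and 12.06 in 4F and 11.29 and 11.50 in GFP, against 11.86 and 11.88 on day 0. Keratinocyte markers were higher for 6 of 26 (10 without 4F day 8 replicate 1) and lower for 1, with sums of 10.72 and 11.30 in 4F and 10.40 and 10.43 in GFP, against 10.72 and 10.48 on day 0, so that 4F replicate 2 alone stood above day 0. Endothelial markers were higher for 1 of 19 and lower for 2 (4 without GFP day 8 replicate 2), skeletal muscle for 1 and 2 of 24, erythroid for 1 and 0 of 11, and germ cell for 1 and 0 of 20. The 1 erythroid gene, the embryonic globin Hbb-y, read 5.07 and 5.06 in the day 0 arrays, 8.02 and 7.60 in the 4F arrays and 5.32 and 5.14 in the GFP arrays. The part of these cell types in the other results was not tested.

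The remaining lists are given by their counts, beside 18% higher and 16.2% lower among all genes. Interferon response genes were called in 2 higher and 1 lower of 38, and the replicate pairs disagreed, with list medians of -0.59 and 0.73. Oas2 read 5.85 and 5.59 in the day 0 arrays, 6.77 and 9.25 in the 4F arrays and 6.12 and 5.77 in the GFP arrays, and its call was lost without 4F day 8 replicate 2 (0.97) or GFP day 8 replicate 2 (1.62); without 4F day 8 replicate 1 the 2 became 6. Cholesterol and fatty acid synthesis was higher for 8 of 36 and lower for 3 (5 without 4F day 8 replicate 2), the 8 becoming 5 without 4F day 8 replicate 1, either GFP array of day 8 or the replicate block. Hox genes were higher for 2 of 40 (5 without 4F day 8 replicate 2, 4 without GFP day 8 replicate 1) and lower for 10, the 10 becoming 3 and 5 in those same omissions. Amino acid transport and ATF4 target genes were higher for 13 of 38 and lower for 4 (2 without the replicate block). Retinoid, adipogenic and xenobiotic genes were higher for 3 of 45 and lower for 15, and iron uptake and storage genes for 5 and 15 of 34, the 5 becoming 3 without any one of 4F day 8 replicate 1, 4F day 8 replicate 2 and GFP day 8 replicate 1, and 2 without the replicate block.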

How the data were processed

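The labels describe total RNA from MEFs, biotin-labelled and hybridised to 1-colour Affymetrix whole-transcript arrays. The authors deposited log2 levels, 1 column per array; their normalization was not given in the sources used here, and the log2 scale was read from the values (4.2676 to 14.3336, array medians over all rows 6.0416 to 6.1687). Without scanner files, background was not assessed, and few arrays limit the precision.

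Of 28853 probe rows, 21789 carried 1 gene symbol (1621 several, 5443 none); 21698 matched the reference by Entrez identifier and 0 symbols needed updating. For 999 genes with several rows the row of highest mean was kept. limma 3.58.1 (R 4.3.3) fitted 24 arrays in 12 groups of 2, all of which share the estimate of spread, with 11 residual degrees of freedom and Benjamini-Hochberg adjustment over all genes. The labels tie the replicate number to the labelling input; replicate differences of 4F and GFP on day 8 correlated at 0.34, and of the 66 pairs of groups 65 were over 0.1, so the number was kept as a block. The titles call replicates biological.

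The members and gene lists were chosen with earlier results of these data known. Named genes were the delivered factors, the most changed in each class, those most changed since day 5 and the most changed of each list in each direction, with the most changed of each class, any member against its list and defining markers of other cell types. Alternatives are in the closing section.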

Additional observations from a re-analysis of the deposited data

Results flagged for a closer look

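The difference between 4F and GFP changed from day 5 to day 8 for 97 genes by a test of that change, limma's contrast of the differences, and the genes below are those of them that are named above. The difference moved up by 2.93 for Bnip3, 3.27 for Slc16a3, 2.65 for Ndufa4l2, 2.54 for Trh, 2.31 for Slc2a3, 1.88 for Egln3, 1.88 for Pfkp and 0.98 for Mcm7, all in log2. It moved by -3.29 for Serpina3n, -2.79 for Il33 and -2.10 for Lgr5, which were already lower in 4F on day 5. For Unc5b and P4ha1, lower in 4F on day 5, it moved back by 1.46 and 1.14, and for Ggh, higher on day 5, by -1.21.

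Among the probe rows left out of the gene-level comparison, 424 of 1621 with several symbols were called between the arms (26.2%), 342 of them higher in 4F, and 805 of 5443 without a symbol (14.8%), 508 of them higher. Both shares lay below the 34.2% of genes called.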

How the results depend on the processing

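Of 6819 genes called, leaving out 1 array at a time left 5465 to 6792, with 2960 to 3575 higher and 2505 to 3239 lower. The same omissions gave 1606 to 2009 genes with 4F alone off day 0, 1888 to 2682 with GFP alone, 305 to 633 with both opposite, 240 to 376 with both in the same direction, 746 to 2056 with neither, 784 to 1269 with 4F farther, 925 to 1790 with GFP farther and 19 to 418 for the change since day 5. A fit on only the 6 arrays of day 0 and day 8, which has fewer samples, called 4277 genes, 2314 higher and 1963 lower. By class it gave 961, 1757, 200 and 117, and by distance 423 for 4F and 540 for GFP. It ended 8 named calls, those of Klf4, Epcam, Krt19, Serping1, Inhba, Ankrd1, Orc3 and Oas2. The typical replicate SD over genes was 0.1155 for 4F day 8, the largest of the 12 groups. It was 0.1053 for GFP day 8 and 0.0852 for day 0. The reported fit shares 1 spread over all groups, so its SEs may be too small for day 8. A log2 difference of at least 1 left 2066 genes, 991 higher and 1075 lower; by class 558, 781, 75, 49 and 603, by distance 201 and 193, and 60 for the change. An adjusted p under 0.01 left 298 both opposite, 143 both the same, 677 and 876 by distance and 30 for the change.

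The replicate number was a block in the reported fit. With no replicate block 5495 genes were called, with 356 both opposite, 214 both the same, 806 with 4F farther and 34 for the change; among 122 named genes it ended 1 call, that of Ankrd1. A filter at the 25th percentile of signal, quantile normalization, median centring, and an intensity trend with robust variance gave 6691, 7027, 6719 and 6695 called genes, and every row with 1 symbol on its own gave 7596 called rows. That last alternative was not run for named genes and lists. Where an omission left 1 array in a group, it was assumed to vary like the other groups. No named gene changed direction under any of these alternatives. With 2 arrays per group and an unstated normalization, small counts within a list are the least certain values, and signal over background could not be assessed.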
